A study of Mus musculus with 12 samples.

Results

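The genes described here encode enzymes and mitochondrial carriers of haem synthesis: Alas2, Alad, Uros, Urod, Cpox, Ppox, Fech, Slc25a39, Slc25a38 and Abcb10. They were taken as a list of names, and each was measured by the probe set whose annotation gives that gene alone, which yielded all 10 genes of 19935 measured by such probe sets. Each was read by 1 probe set. RNA came from CD71-enriched cells of hind-leg bone marrow, the marker being the transferrin receptor carried by red cell precursors, and was hybridised to 12 whole-transcript Affymetrix arrays, 1 per mouse. The 4 groups each held 3 male mice of 10 to 12 weeks on a C57BL/6 background. WT mice carried neither change, CD70TG mice carried a CD70 transgene, Ifng-/- mice lacked the interferon-gamma gene and CD70TG*Ifng-/- mice combined both, with no treatment named. CD70 binds CD27, a receptor that costimulates T cells. The labels name a single clone, F13, for the CD70TG mice and no clone for the CD70TG*Ifng-/- mice, and they name no promoter. As background, the CD70 transgenic line of this kind is known to express CD70 on B cells. The 4 groups cross the transgene with loss of interferon-gamma, so that the transgene effect can be read with and without Ifng, and the effect of Ifng loss with and without the transgene.

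Haem is made in a chain that begins and ends in the mitochondrion. Alas2, the synthase found in red cell precursors, condenses glycine with succinyl-CoA to aminolevulinate and sets the pace of the chain, and Slc25a38 carries glycine into the mitochondrion for it. In the cytosol Alad joins a pair of aminolevulinate molecules into a pyrrole ring, Uros closes the ring of joined pyrroles and Urod removes carboxyl groups from its side chains. Cpox and Ppox, again in the mitochondrion, oxidise the product to protoporphyrin, and Fech, an iron-sulphur protein, inserts the iron. Slc25a39 carries glutathione into the mitochondrion, and Abcb10 is an inner membrane transporter needed for normal haem synthesis in red cell precursors.

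The values are on a log2 scale and centred on the median of each probe set across the 12 arrays, so they show how a gene varies between mice and not how abundant it is. Array medians lay between -0.02 and 0.03. The rounding of the deposited numbers kept a trace of the original level, which placed 2732 genes at a log2 level of 8 or more in every array. All 10 haem synthesis genes and all 12 measured erythroid markers were among them. In this higher level class the array labelled CD70TG 3 was the lowest of its group for 75.8% of genes, against 32.5% over all genes. The other groups were uneven too, though less so. Their most frequent lowest arrays were Ifng-/- 1 (58.5%), CD70TG*Ifng-/- 2 (57.4%) and WT 1 (50.3%). Ifng values lay between -0.16 and 0.20 and did not separate the groups, and since the deleted part is not named in the labels they do not check the genotype. Cd70 was higher in every CD70TG array (-0.01, 0.01 and 0.05) than in any WT array (-0.38 to -0.12), but among the mice without Ifng the highest Ifng-/- array (0.04) lay just under the lowest CD70TG*Ifng-/- array (0.05).

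Promoter sequences are shown for 3 genes, Slc25a39 and Alas2 because they fell in the CD70TG mice and Cpox because it belongs to the same chain, did not fall and holds a GATA motif as Alas2 does. Each run gives the 250 bases before the RefSeq gene start in GRCm38.p6, 5′ to 3′ on the gene's strand. Capitals mark matches to AGATAA or TGATAA (motifs of GATA factors) or CCNCACCC (a motif of Klf1-type factors) on either strand, and a run without capitals holds no match.
Slc25a39, chr11:102407518-102407767, minus strand: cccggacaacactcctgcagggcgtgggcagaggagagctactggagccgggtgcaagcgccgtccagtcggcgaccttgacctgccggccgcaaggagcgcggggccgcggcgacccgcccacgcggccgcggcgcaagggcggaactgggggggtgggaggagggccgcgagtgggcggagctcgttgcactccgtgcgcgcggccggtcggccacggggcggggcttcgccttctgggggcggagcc
Alas2, chrX:150547167-150547416, plus strand: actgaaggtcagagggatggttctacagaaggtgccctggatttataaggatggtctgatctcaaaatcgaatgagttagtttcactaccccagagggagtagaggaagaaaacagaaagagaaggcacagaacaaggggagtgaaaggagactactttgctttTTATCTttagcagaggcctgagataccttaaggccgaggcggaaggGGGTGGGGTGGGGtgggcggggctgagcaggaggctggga
Cpox, chr16:58669958-58670207, plus strand: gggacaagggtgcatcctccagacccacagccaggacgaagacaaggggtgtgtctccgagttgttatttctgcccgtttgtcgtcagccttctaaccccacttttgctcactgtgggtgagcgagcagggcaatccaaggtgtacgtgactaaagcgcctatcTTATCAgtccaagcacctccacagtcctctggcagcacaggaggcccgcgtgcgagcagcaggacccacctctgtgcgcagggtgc
The Alas2 window held AGATAA on the strand opposite the gene, 86 to 81 bases before the start, and a pair of overlapping CCNCACCC matches on that strand, at 40 to 33 and 35 to 28 bases. In Cpox the match was TGATAA on the strand opposite the gene, also 86 to 81 bases before the start. The search covered 9 members and left out Fech, so nothing is said about the Fech promoter. Among these 9, Uros was the other one with a GATA match. It was TGATAA on the opposite strand, 68 to 63 bases before 1 of its starts. AGATAA or TGATAA occurs in 16.6% of all 32851 windows of this length and CCNCACCC in 14.9%. The stricter CCACACCC, which CCNCACCC includes and 3.20% of windows hold, matched none of the 9 members searched. Nor did TGACTCA, the motif of NF-E2 and Bach1, held by 4.46%. These matches are letters in a window and say nothing about binding.

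In mice with Ifng intact, the CD70 transgene went with lower RNA for 3 of the 10 genes: Slc25a39, the glutathione carrier, Fech, which inserts the iron, and Alas2, which starts the chain. Slc25a39 was 1.62-fold lower in CD70TG than in WT, Fech 1.39-fold lower and Alas2 1.35-fold lower. The other 7 genes did not pass the test. None of the 10 was called higher, though 5 of them had a positive change. A gene was called when its p-value from limma, a linear model fitted to all genes with a shared estimate of the spread, was under 0.05 after Benjamini-Hochberg adjustment over 19935 genes. By this rule 2.70% of all genes were called lower and 8.23% higher in CD70TG, 10.9% in all, and within the higher level class 4.58% were called lower and 22.5% higher, 27.0% in all. In bulk RNA of an enriched cell population, fewer cells of a type and less RNA per cell cannot be told apart.

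**Figure D1:**
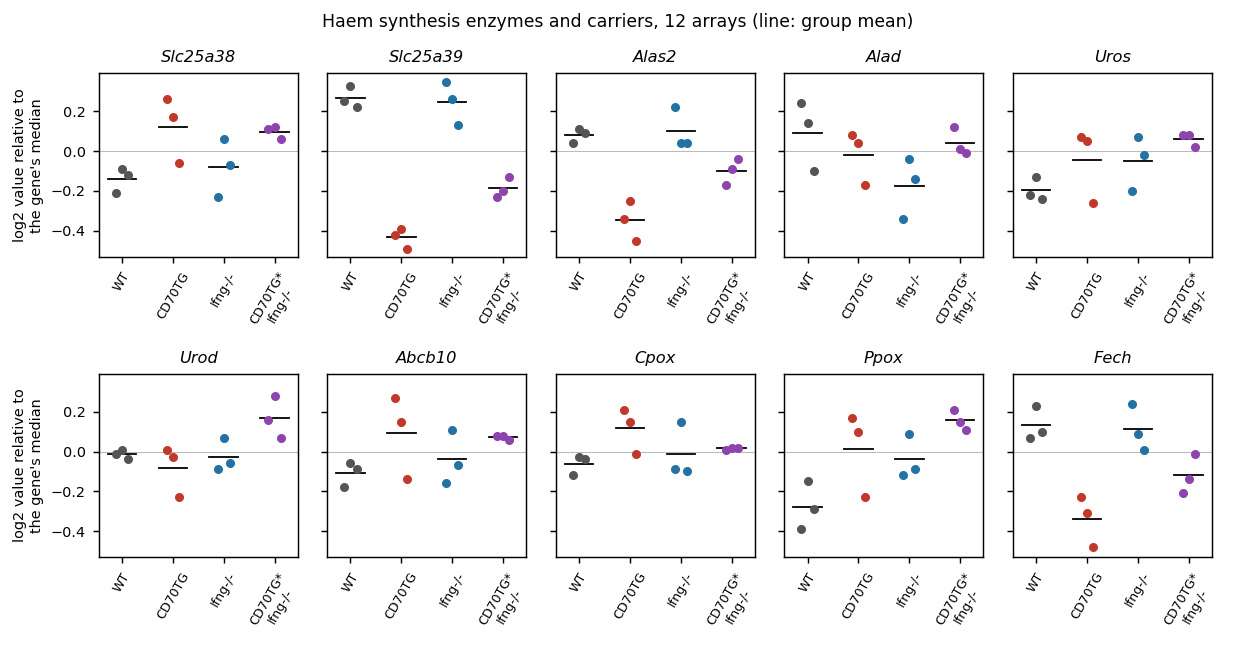
Log2 values of the 10 haem synthesis genes, each centred on its median across the 12 arrays, with 1 point per mouse, by genotype, and a bar at each group mean. The CD70TG points of Slc25a39, Fech and Alas2 all lie below the WT points, and CD70TG 3 is the lowest of its group in all 10 genes.

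Slc25a39 separated the mice with the transgene from those without it. The WT mice had values of 0.25, 0.33 and 0.22, the CD70TG mice -0.42, -0.39 and -0.49, the Ifng-/- mice 0.35, 0.26 and 0.13, and the CD70TG*Ifng-/- mice -0.23, -0.20 and -0.13. Every transgenic mouse was below every mouse without the transgene, and the 2 transgenic groups did not overlap each other, the CD70TG mice being lower. The group means were 0.27 ± 0.05 (SD, n = 3) in WT and -0.43 ± 0.05 (SD, n = 3) in CD70TG. The change was -0.70 ± 0.07 (log2, SE; limma adjusted p = 8.5e-05), with a 95% interval of -0.86 to -0.54. Among the 539 genes called lower it ranked 165 by size of change.

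For Fech the WT mice had 0.07, 0.23 and 0.10, the CD70TG mice -0.23, -0.31 and -0.48, the Ifng-/- mice 0.24, 0.09 and 0.01, and the CD70TG*Ifng-/- mice -0.21, -0.14 and -0.01. All CD70TG mice were below all other mice, and the highest CD70TG*Ifng-/- mouse lay just under the lowest Ifng-/- mouse. Its mean was 0.14 ± 0.08 (SD, n = 3) in WT and -0.34 ± 0.13 (SD, n = 3) in CD70TG, a change of -0.48 ± 0.09 (log2, SE; limma adjusted p = 0.00503; 95% interval -0.67 to -0.28).

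For Alas2 the WT mice had 0.04, 0.11 and 0.09, the CD70TG mice -0.34, -0.25 and -0.45, the Ifng-/- mice 0.22, 0.04 and 0.04, and the CD70TG*Ifng-/- mice -0.17, -0.09 and -0.04. The 3 CD70TG mice were again the lowest of the 12, the CD70TG*Ifng-/- mice came next and the WT and Ifng-/- mice overlapped at the top. Its mean fell from 0.08 ± 0.04 (SD, n = 3) in WT to -0.35 ± 0.10 (SD, n = 3) in CD70TG, a change of -0.43 ± 0.08 (log2, SE; limma adjusted p = 0.00393; 95% interval -0.59 to -0.26). Fech and Alas2 ranked 292 and 330 among the genes called lower.

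None of the genes measured for the steps between Alas2 and Fech was called. Ppox, the oxidase just before Fech, gave -0.39, -0.15 and -0.29 in WT and 0.17, 0.10 and -0.23 in CD70TG, so that a single CD70TG mouse overlapped the WT range. Its change was 0.29 ± 0.10 (log2, SE; limma adjusted p = 0.0904), with an interval of 0.07 to 0.51. Cpox, which acts before Ppox, gave -0.12, -0.03 and -0.04 in WT and 0.21, 0.15 and -0.01 in CD70TG. The Cpox groups did not overlap, but the change of 0.18 did not pass (limma adjusted p = 0.172; interval 0.01 to 0.36).

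The cytosolic enzymes differed by 0.15 or less. Uros gave -0.22, -0.13 and -0.24 in WT and 0.07, 0.05 and -0.26 in CD70TG, a change of 0.15 (limma adjusted p = 0.334; interval -0.05 to 0.35). Alad gave 0.24, 0.14 and -0.10 against 0.08, 0.04 and -0.17, a change of -0.11 (limma adjusted p = 0.531; interval -0.33 to 0.11). Urod gave -0.01, 0.01 and -0.04 against 0.01, -0.03 and -0.23, a change of -0.07 (limma adjusted p = 0.628; interval -0.25 to 0.11). All 3 intervals include 0, and none of the 3 genes separated the groups.

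The other carriers differed from Slc25a39 in sign. Slc25a38, the glycine carrier, gave -0.21, -0.09 and -0.12 in WT and 0.26, 0.17 and -0.06 in CD70TG, with no overlap. Its change of 0.26 ± 0.09 (log2, SE) did not pass (limma adjusted p = 0.0857; interval 0.06 to 0.46). Abcb10 gave -0.18, -0.06 and -0.09 against 0.27, 0.15 and -0.14, a change of 0.20 (limma adjusted p = 0.208; interval -0.01 to 0.42). In all, the groups did not overlap for 5 of the 10 genes, 3 lower and 2 higher in CD70TG, while 13.5% of all genes were lower without overlap and 17.6% higher, 31.1% in all.

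**Figure D2:**
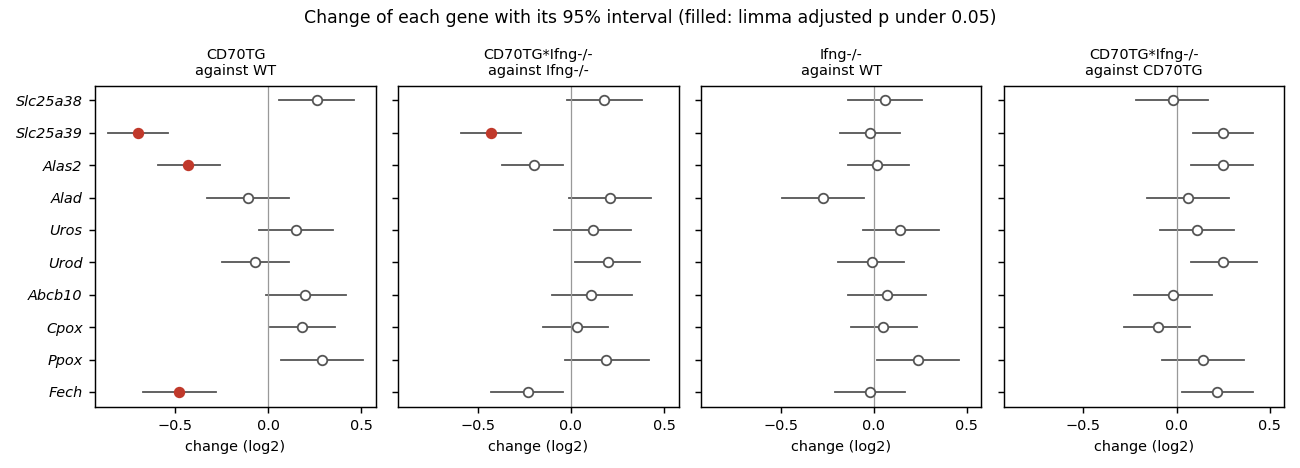
Change of each of the 10 genes in the 4 pairwise comparisons, as log2 difference with its 95% interval from limma; filled points passed the test at an adjusted p under 0.05. Slc25a39, Fech and Alas2 are filled in CD70TG against WT, and Slc25a39 alone is filled in CD70TG*Ifng-/- against Ifng-/-.

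The array CD70TG 3 was the lowest of its group for all 10 genes, and the changes were recomputed without it. Without it the 3 falls remained (Slc25a39 -0.67, limma adjusted p = 0.000589; Alas2 -0.38, adjusted p = 0.0146; Fech -0.40, adjusted p = 0.0172) and 3 rises passed as well. These were Ppox, 0.41 (adjusted p = 0.0155), Slc25a38, 0.36 (adjusted p = 0.0241), and Abcb10, 0.32 (adjusted p = 0.0329). The count of called members thus went from 3 to 6 on removing that mouse. In the same fit the higher level class had a median change of 0.25, with 85% of its genes positive, against 0.13 over the members. The share of all genes called in that fit is not given here, so the 3 rises are not set against a background.

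The genes of the higher level class also moved as a whole. Their median change in CD70TG against WT was 0.19, against -0.02 over all genes and 0.04 over the 10 members, and 80.7% of them had a positive change. When each array was centred on its median within the level classes, the median of the members became -0.11 and the falls became larger. Slc25a39 then fell by 0.85, Fech by 0.62 and Alas2 by 0.58 on the log2 scale, with limma adjusted p of 3.54e-05, 0.000933 and 0.0011. The positive changes shrank towards 0: Ppox was 0.14, Slc25a38 0.12, Abcb10 0.06, Cpox 0.04 and Uros 0.002, none of them called. Relative to genes of their own level class, Slc25a39, Fech and Alas2 were still called lower, and no other member lay more than 0.14 above WT. Alad and Urod moved to -0.26 and -0.22, with intervals of -0.44 to -0.07 and -0.37 to -0.06 that no longer include 0, but were not called (adjusted p = 0.0814 and 0.0759).

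**Figure D3:**
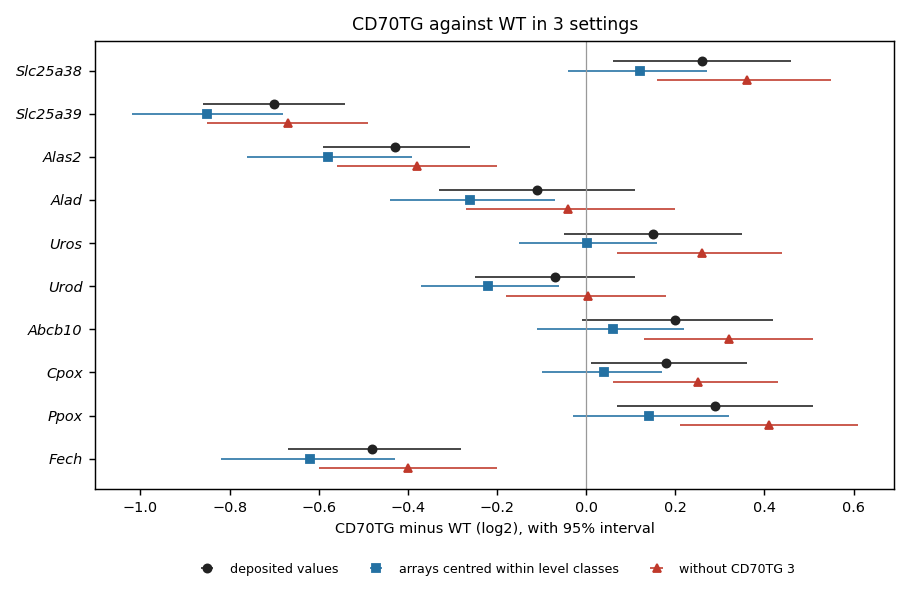
Change of each gene in CD70TG against WT (log2, with 95% intervals from limma) as fitted, with the arrays centred within level classes, and without the array CD70TG 3. Slc25a39, Fech and Alas2 stay below 0 with intervals that exclude it in all 3 settings, while Ppox moves between 0.14 and 0.41.

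Without interferon-gamma, 1 of the 10 genes was called for the transgene. In CD70TG*Ifng-/- mice Slc25a39 was 1.35-fold below its level in Ifng-/- mice, with means of -0.19 ± 0.05 (SD, n = 3) and 0.25 ± 0.11 (SD, n = 3). The change was -0.43 ± 0.07 (log2, SE; limma adjusted p = 0.0039; interval -0.59 to -0.27), and it passed under every alternative setting tried. Over all genes 2.35% were called lower in this comparison, 0.156% higher and 2.50% in all. The group means compared here come from none of the arrays of CD70TG against WT. The estimate of spread behind the test was fitted to all groups together, so the test itself also draws on those arrays.

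Fech and Alas2 were lower in all 3 CD70TG*Ifng-/- mice than in any Ifng-/- mouse, by -0.23 ± 0.09 and -0.20 ± 0.08 (log2, SE), but neither passed (limma adjusted p = 0.279 for both). Their intervals were -0.43 to -0.04 and -0.37 to -0.04. The estimates from CD70TG against WT, -0.48 and -0.43, lay just beyond the lower ends but carry errors of their own. The direct test of a difference, the interaction given below, did not pass for either gene. Urod gave -0.09, 0.07 and -0.06 without the transgene against 0.16, 0.28 and 0.07 with it, a change of 0.20 (limma adjusted p = 0.344; interval 0.02 to 0.37). Alad gave -0.34, -0.04 and -0.14 against 0.12, 0.01 and -0.01, a change of 0.21 (adjusted p = 0.434). Ppox gave -0.12, 0.09 and -0.09 against 0.21, 0.15 and 0.11, a change of 0.19 (adjusted p = 0.486). Thus 6 of the 10 genes did not overlap between these groups, 3 lower and 3 higher, where 7.09% of all genes were lower and 9.32% higher without overlap, 16.4% in all.

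The remaining genes overlapped between the Ifng-deficient groups. Slc25a38 gave -0.23, 0.06 and -0.07 without the transgene against 0.11, 0.12 and 0.06 with it, a change of 0.18 (limma adjusted p = 0.476). Uros gave -0.20, 0.07 and -0.02 against 0.08, 0.08 and 0.02, a change of 0.12 (adjusted p = 0.661). Abcb10 gave -0.16, 0.11 and -0.07 against 0.08, 0.08 and 0.06, and Cpox -0.09, 0.15 and -0.10 against 0.01, 0.02 and 0.02. Their changes were 0.11 and 0.03 (adjusted p = 0.682 and 0.917). In each of these 4 genes Ifng-/- 2 was the highest mouse of its group, and the 3 CD70TG*Ifng-/- mice lay close together.

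Whether the transgene effect differed with and without Ifng was tested as an interaction, the first effect minus the second. None of the 10 genes passed in limma, where 1.89% of all genes did. An unadjusted p under 0.05 was found for 3 of the 10, Slc25a39, Urod and Alad, and for 20.3% of all genes. Slc25a39 had an interaction of -0.27 ± 0.11 (log2, SE; adjusted p = 0.181; interval -0.49 to -0.04), Alas2 one of -0.23 (adjusted p = 0.262; interval -0.46 to 0.01) and Fech one of -0.24 (adjusted p = 0.293; interval -0.51 to 0.03). Urod (-0.27, adjusted p = 0.221, interval -0.52 to -0.02) and Alad (-0.32, adjusted p = 0.233, interval -0.63 to -0.01) had differences of the same size. With limma's array weights, which count arrays by how closely they follow their group, the interaction of Slc25a39 passed (-0.32, adjusted p = 0.0429), while it did not in the 18 other alternatives (adjusted p from 0.0721 to 0.316). The test therefore left the difference for Slc25a39 dependent on the weights, and it did not pass for Alas2 or Fech, whose intervals reach from about 0 to the whole size of their falls.

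With no transgene, mice with and without Ifng overlapped in all 3 genes that had fallen in CD70TG mice. In Ifng-/- against WT, Alas2 differed by 0.02 (limma adjusted p = 0.921; interval -0.14 to 0.19), Fech by -0.02 (adjusted p = 0.935; interval -0.21 to 0.17) and Slc25a39 by -0.02 (adjusted p = 0.92; interval -0.18 to 0.14). No member was called, and 1 gene of all (0.00502%) was. An unadjusted p under 0.05 was found for 2 of the 10 members and for 13.8% of all genes. Those 2 were Alad, -0.27 ± 0.10 (log2, SE; adjusted p = 0.301), and Ppox, 0.24 ± 0.10 (adjusted p = 0.341), and Ppox was the 1 member whose groups did not overlap, where 9.43% of genes were higher without overlap. This comparison shares the WT arrays with CD70TG against WT.

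Among the transgenic mice, those without Ifng had higher values for Slc25a39, Alas2, Urod and Fech in every mouse. The differences of CD70TG*Ifng-/- from CD70TG were 0.25 ± 0.07 for Slc25a39 (log2, SE; limma adjusted p = 0.162), 0.25 ± 0.08 for Alas2 (adjusted p = 0.184), 0.25 ± 0.08 for Urod (adjusted p = 0.209) and 0.22 ± 0.09 for Fech (adjusted p = 0.359). None of the 10 genes passed, where 1.41% of all genes were called, and an unadjusted p under 0.05 was found for 4 of the 10 and for 11.2% of all genes. With array weights Slc25a39 (0.25, adjusted p = 0.00547), Fech (0.26, adjusted p = 0.0109) and Alas2 (0.22, adjusted p = 0.0127) passed, while in the 19 other alternatives none of the 3 did (adjusted p from 0.11 to 0.713). The weights were 4.373 for CD70TG 2 and 4.241 for CD70TG*Ifng-/- 3, against 0.482 to 0.852 for the other mice of these groups. The weighted difference thus rests largely on 1 mouse per group. Higher values without overlap were found for 9.31% of all genes. These are the same CD70TG arrays as in the comparison with WT, so the 2 comparisons are not independent. Over all 4 groups, limma's F test called the same 3 genes as CD70TG against WT, Slc25a39 (adjusted p = 5.34e-05), Alas2 (adjusted p = 0.00593) and Fech (adjusted p = 0.0104), where it called 6.71% of all genes.

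Alas2 and Fech followed each other closely over the 12 mice. Measured as the root mean square difference of their log2 values, Fech was the 4th nearest of all genes to Alas2 (0.058), after Isg20 (0.046), Sh3glb1 (0.048) and Marchf2 (0.049), and before Eif5 (0.059). Alas2 was the third nearest to Fech, after Isg20 (0.050) and Marchf2 (0.055) and before Chp1 and Tfdp2 (0.067 each). Slc25a39 ranked 137 from Alas2 and 58 from Fech, its own nearest genes being Gda (0.082), Slc48a1 (0.087), Ftl1 (0.091), Adipor1 (0.097) and Fcrl1 (0.098). The 7 other members ranked 7767 or later from both Alas2 and Fech. These are descriptions over 12 arrays that share the same groups, and genes that vary little lie near each other on this measure.

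Genes of neighbouring pathways were described from lists of names, and in the counts of a list rose and fell mean called higher and called lower. Of 14 measured genes for other haem synthesis steps and cofactors, 3 rose and none fell in CD70TG against WT, where 8.23% of all genes rose, and the median change was 0.33. An unadjusted p under 0.05 was found for 10 of the 14 and for 26.3% of all genes. They were Suclg2 and Suclg1, subunits of the enzyme that interconverts succinyl-CoA and succinate (0.60 ± 0.11, limma adjusted p = 0.00488, and 0.41 ± 0.10, adjusted p = 0.0211), and Aco1, the cytosolic aconitase that also senses iron (0.40 ± 0.08, adjusted p = 0.0063). Suclg1 was lost without WT 2, CD70TG 2 or CD70TG 3, and the count of rises was 2 without WT 2 or CD70TG 2, 5 without CD70TG 3 or CD70TG*Ifng-/- 2, 6 without Ifng-/- 1 and 7 without Ifng-/- 2. Alas1, the synthase of other tissues, was at 0.51 (adjusted p = 0.156), and the transporters Tmem14c and Abcb6 were at 0.33 each (adjusted p = 0.0502 and 0.068). In CD70TG*Ifng-/- against Ifng-/- none rose and Aldh6a1, an enzyme of valine breakdown, fell by 0.46 on the log2 scale (adjusted p = 0.00986), a call lost without CD70TG*Ifng-/- 3. For Aco1 the transgene effect differed with Ifng by 0.61 (interaction adjusted p = 0.018), lost on leaving out any of 4 mice. The interactions of Suclg2 (0.67, adjusted p = 0.049) and, in the next list, Nfu1 (0.51, adjusted p = 0.0414) were each lost on leaving out any of 11 of the 12 mice.

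Genes for mitochondrial iron supply and iron-sulphur clusters, which Fech needs, split in both directions. Of 15 measured, 3 fell and 4 rose in CD70TG against WT, with a median of 0.10. Over all genes 2.70% fell and 8.23% rose. In the higher level class, which held 11 of the 15, 4.58% fell and 22.5% rose. Iscu, the scaffold on which clusters are built, had values of 0.18, 0.20 and 0.07 in the WT mice, -0.61, -0.49 and -0.83 in the CD70TG mice, 0.22, 0.21 and 0.16 in the Ifng-/- mice, and -0.16, -0.15 and -0.07 in the CD70TG*Ifng-/- mice. As for Slc25a39, the CD70TG mice were the lowest, the CD70TG*Ifng-/- mice came next and the mice without the transgene were above both. It was 1.73-fold lower in CD70TG (-0.79 ± 0.08, limma adjusted p = 8.5e-05) and rose by 0.52 ± 0.08 in CD70TG*Ifng-/- against CD70TG (adjusted p = 0.00428), a comparison with the same CD70TG arrays. Isca1, a cluster assembly protein, fell by 0.58 on the log2 scale (adjusted p = 0.00184).

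Hspa9, the mitochondrial chaperone that works with Iscu, rose by 0.80 ± 0.12 (adjusted p = 0.00102), and Nfu1, which passes clusters on, by 0.57 ± 0.08 (adjusted p = 0.000874). Named after their values were seen, Hscb, the partner of Hspa9, fell by 0.62 (adjusted p = 0.0116, lost without WT 1), while Sfxn1 and Lyrm4 rose by 0.49 and 0.36 (adjusted p = 0.0436 and 0.0302). The last 2 calls were lost with centring within level classes, under which 2 rose and 5 fell, and 2 rose without WT 1, WT 2 or CD70TG 1. Slc25a37, the mitoferrin that brings iron into the mitochondrion of red cell precursors, was at -0.23 (adjusted p = 0.0793) and reached -0.37 (adjusted p = 0.00582) with that centring. In CD70TG*Ifng-/- against Ifng-/- no gene of this list was called in limma, and 4 of the 15 had an unadjusted p under 0.05, against 12.1% of all genes. Iscu was at -0.33 there (adjusted p = 0.0617), and 1 gene fell with quantile normalisation, without CD70TG 3 or with centring within level classes, where Iscu was at -0.34 (adjusted p = 0.0319). Its interaction was -0.46 (adjusted p = 0.0603), and -0.59 with that centring (adjusted p = 0.0171).

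Of 16 genes for haem export, breakdown and sensing, none rose and 2 fell in CD70TG against WT. Over all genes 2.70% fell in this comparison and 2.35% in CD70TG*Ifng-/- against Ifng-/-. Hmox1, the inducible enzyme that breaks haem down, had values of 1.51, 2.28 and 1.39 in the WT mice against -1.42, -1.49 and -1.39 in the CD70TG mice. Without Ifng, values of 2.01, 1.86 and 2.11 stood against -1.83, -1.75 and -1.50 with the transgene, so that no transgenic mouse came near a mouse without it. It was 8.92-fold lower with Ifng intact (limma adjusted p = 5.72e-07) and 12.8-fold lower without Ifng (adjusted p = 2.31e-08). Slc48a1, a haem transporter of lysosomes, fell by 0.58 on the log2 scale with Ifng intact (adjusted p = 0.00225). Without Ifng 4 of the 16 fell, Slc48a1 (-0.39, adjusted p = 0.049), Hmox2 (-0.32, adjusted p = 0.0293) and Blvra, which converts biliverdin (-0.38, adjusted p = 0.0215), besides Hmox1, and leaving out a mouse gave 1 to 4 (1 without CD70TG*Ifng-/- 2 or CD70TG*Ifng-/- 3). Bach1, a haem-sensing repressor, and Eif2ak1, the haem-regulated kinase, were at 0.04 and -0.04 in CD70TG against WT and did not pass. Of the globin list 3 embryonic genes were measured, none in the higher level class; adult globins are not analysed here. Hbb-bh1 was at -0.33 (adjusted p = 0.03), a call lost without WT 1, WT 3 or CD70TG 1.

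**Figure D4:**
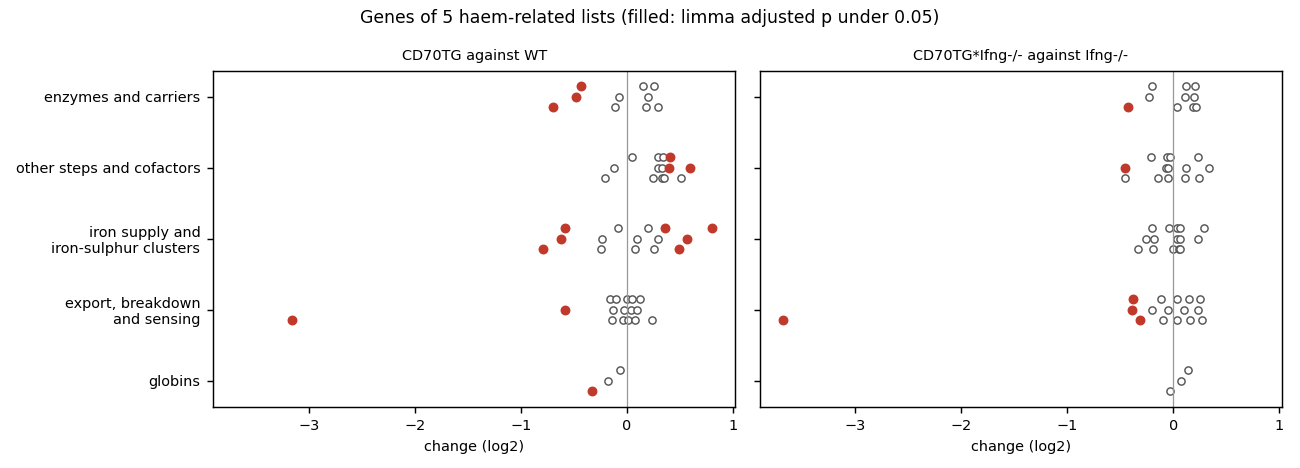
Changes of the measured genes of the haem synthesis list and the 4 related lists (log2, 1 point per gene) in CD70TG against WT and in CD70TG*Ifng-/- against Ifng-/-, with filled points for genes past an adjusted p of 0.05 in limma. Hmox1 lies far to the left in both panels, at -3.16 and -3.68, and the iron-sulphur list has filled points on both sides of 0 in the first.

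Markers of red cell precursors and of other cells were read beside the 3 falls. Of 12 measured erythroid markers none was called in any comparison in limma. In CD70TG against WT 10.9% of all genes were called, and 27.0% of the higher level class, which held all 12. None of the 12 had an unadjusted p under 0.05 in CD70TG against WT, where 26.3% of all genes did. Such a p was found for 1 of the 12 in CD70TG*Ifng-/- against Ifng-/-, in CD70TG*Ifng-/- against CD70TG and in the interaction. Gata1 and Klf1, transcription factors of red cell precursors, were at 0.18 and 0.17 (adjusted p = 0.247 and 0.272), the erythropoietin receptor Epor at 0.11 (adjusted p = 0.611) and Tfrc, which encodes CD71, at -0.02 (adjusted p = 0.902). With centring within level classes the membrane proteins Epb42 (-0.32, adjusted p = 0.016) and Slc4a1 (-0.25, adjusted p = 0.0213) fell, so the erythroid list did not stay without calls under that scaling.

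Over all genes 2.70% fell and 8.23% rose in CD70TG against WT, and 2.35% fell and 0.156% rose in CD70TG*Ifng-/- against Ifng-/-. Of 16 macrophage markers 15 fell in CD70TG against WT and 15 in CD70TG*Ifng-/- against Ifng-/-, with medians of -1.67 and -2.64. Their mean value per mouse was 0.67 to 1.33 in WT and 1.07 to 1.45 in Ifng-/-, against -0.93 to -0.70 in CD70TG and -1.23 to -1.17 in CD70TG*Ifng-/-. This list was lowest in the CD70TG*Ifng-/- mice, whereas Slc25a39, Fech and Alas2 were lowest in the CD70TG mice. Of 11 B cell markers 10 fell in CD70TG against WT and 2 in CD70TG*Ifng-/- against Ifng-/-, with means of 0.14 to 0.53 in the WT mice, -0.55 to -0.45 in the CD70TG mice, 0.05 to 0.41 in Ifng-/- and -0.16 to -0.05 in CD70TG*Ifng-/-, an order of groups like that of the 3 falling genes. The second B cell count was 7 without Ifng-/- 2 and 1 without any of 9 other mice. Of 12 neutrophil markers 3 fell and 1 rose in CD70TG against WT, with means of 0.79 to 0.91 in the WT mice, -0.17 to 0.21 in the CD70TG mice, -0.61 to 1.67 in Ifng-/- and -0.46 to -0.18 in CD70TG*Ifng-/-. In CD70TG against WT all 12 had an unadjusted p under 0.05 in limma, where 26.3% of all genes did. They did not share a direction: Mpo, Prtn3 and Elane were higher (1.09, 1.08 and 0.81) and the others lower. The called rise was that of Prtn3, lost without WT 1, WT 2 or CD70TG 3. The count of falls was 0 without WT 1, WT 2 or CD70TG 1, 1 without WT 3, and 9 without Ifng-/- 1 or Ifng-/- 2. In CD70TG*Ifng-/- against Ifng-/- none of the 12 was called in limma, 4 had an unadjusted p under 0.05, and 9 fell without Ifng-/- 2. Of 11 T and NK cell markers Cd4 alone was called, lower by 1.43-fold in CD70TG against WT (adjusted p = 0.00408) and lower also in CD70TG*Ifng-/- against Ifng-/-. Among 10 early progenitor markers Myc rose by 1.25 ± 0.17 and Cdk6 by 0.83 (adjusted p = 0.000467 and 0.00327), while Meis1 was at -0.29 (adjusted p = 0.0284), a call lost without WT 1, WT 2, CD70TG 2 or CD70TG 3. Of the macrophage markers 1, and of the B cell markers none, was in the higher level class. That class requires the level in every array, so a marker that drops in some groups can miss it whatever its level in the others. The levels of defining markers are not held by centred values, and the part of these cells in the changes of Slc25a39, Fech, Alas2 and Hmox1 was not tested.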

How the data were processed

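RNA from CD71-enriched bone marrow of 12 mice, 3 per group, was measured on whole-transcript Affymetrix arrays, and groups were taken from the labels, which number separate mice. The deposited log2 values were made by the authors with RMA, per the submitters' processing notes, a method that corrects background, equalises arrays and combines probes; for its version and the genome build, nothing is given in the sources used here. The log base was taken from what RMA gives. Every 1 of the 28815 probe sets had a median of 0 over the arrays within 1e-06, so levels are not held, and how and why the values were centred is unknown. From the platform annotation, 21780 probe sets had 1 gene symbol, 1605 several and 5430 none, and the last 2 kinds named no gene. A gene with several probe sets was given their average (998 of 19935 genes).

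Group means were fitted with limma 3.58.1 (lmFit and eBayes, 4 group means, 8 residual degrees of freedom) in R 4.3.3. Tests were two-sided, with Benjamini-Hochberg adjustment of the p-values over all 19935 genes and a threshold of 0.05. The test was tried on simulated data first. No filter on dim genes was used. The level class came from the rounding step of the deposited numbers, allowing a deviation of 0.1 of a step and ignoring values under 0.001. A gene was placed in the higher class only if all its probe sets met this in every array. Signal over background is not held, and the precision is limited by the number of arrays.

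Alternatives were quantile normalisation, centring of each array on its median over all genes or within level classes, the mouse number as a block, the 2 compared groups alone, each array left out, CD70TG 3 and Ifng-/- 2 left out together, array weights, and the higher level class alone. A planned comparison of each probe set of a gene did not arise, since each member has 1. The members, lists and settings were chosen with earlier results of these data known. The rule for naming took all 10 members and Gata1, Klf1, Epor and Tfrc, and for Alas2, Fech and Slc25a39 the 5 nearest genes. From each other list it took up to 4 called genes with the smallest p in each comparison. Those of the macrophage and B cell lists, and some of the neutrophil list, appear here only in counts and summaries of their list. Not every called comparison of a named marker is printed. Alas1, Abcb6, Tmem14c, Slc25a37, Hscb, Sfxn1, Lyrm4, Bach1, Eif2ak1, Epb42, Slc4a1 and Elane were named outside this rule after their values were seen. Some genes of the lists, the adult globins among them, are not analysed here.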

Additional observations from a re-analysis of the deposited data

How the results depend on the processing

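In CD70TG against WT the falls of Slc25a39, Fech and Alas2 passed under all 20 alternatives (-0.85 to -0.67, -0.62 to -0.40 and -0.58 to -0.36), as did that of Slc25a39 in CD70TG*Ifng-/- against Ifng-/- (-0.49 to -0.35). The 3 members called in CD70TG against WT became 8 (5 higher, 3 lower) without CD70TG 3 and Ifng-/- 2 together and 8 with array weights. They became 5 (2 higher, 3 lower) with the higher level class alone, and 3 to 6 on leaving out 1 array. The shares of all genes called in these settings are not given here, so the added rises are not set against a background. In the main fit 22.5% of the higher level class was already called higher. Array weights also gave 3 called members in CD70TG*Ifng-/- against CD70TG (Slc25a39, Fech and Alas2, all higher) and 1 in the interaction (Slc25a39), where the fit with equal weights gave 0 (4 and 3 at an unadjusted p under 0.05 in limma). The weighted fit counted CD70TG 2 and CD70TG*Ifng-/- 3 most (weights of 4.373 and 4.241). The F test over all groups gave 7 with array weights and 6 without CD70TG 3 and Ifng-/- 2. With the mouse number as a replicate block the calls were 3 in CD70TG against WT, 1 in CD70TG*Ifng-/- against Ifng-/-, 3 in the F test and 0 otherwise. Mice with the same number did not deviate together (18 pairs, r from -0.401 to 0.311, median -0.0724), so the numbers were not taken to pair them.

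Changes of sign arose among uncalled members only, and the cause was not tested. With centring within level classes, Ifng-/- against WT gave -0.08 for Alas2, -0.04 for Cpox and Slc25a38 and -0.03 for Abcb10, CD70TG*Ifng-/- against CD70TG gave 0.01 for Slc25a38 and 0.02 for Abcb10, and the interaction gave -0.10 for Uros, -0.03 for Ppox and -0.04 for Slc25a38 and Abcb10. Without CD70TG 3 and Ifng-/- 2 together, Urod was at 0.003 in CD70TG against WT, Cpox at -0.03, Slc25a38 at -0.01 and Abcb10 at -0.001 in Ifng-/- against WT, and Alad at -0.02 in CD70TG*Ifng-/- against CD70TG. Leaving out 1 array moved Urod from -0.11 to 0.003 in CD70TG against WT and Cpox from -0.02 to 0.11 in CD70TG*Ifng-/- against Ifng-/-. In Ifng-/- against WT it moved Alas2 from -0.04 to 0.05, Urod from -0.06 to 0.02, Cpox from -0.03 to 0.10, Fech from -0.08 to 0.03, Slc25a39 from -0.07 to 0.04, Slc25a38 from -0.01 to 0.14 and Abcb10 from -0.001 to 0.13. In CD70TG*Ifng-/- against CD70TG it moved Alad from -0.02 to 0.10, Slc25a38 from -0.12 to 0.04 and Abcb10 from -0.13 to 0.07, and in the interaction Uros from -0.03 to 0.14.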
